A study of Mus musculus with 9 samples.

Results

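Tff1, Tff2, Gkn1, Gkn2, Gkn3, Muc5ac, Muc6, Gast and Pgc, which encode secreted products of the stomach lining and of duodenal Brunner glands, were followed in mouse duodenum. The rows were taken by gene name from a table of 54532 genes, and all 9 names were found there. They were chosen by their measured FPKM levels in these libraries, above all in 1 library of the nanoparticle group, so their levels are given below as a description and no test is drawn from them. RNA depleted of ribosomal RNA was sequenced from 3 groups of 3 libraries each. CeD+GR mice were a delayed-type hypersensitivity (DTH) model of celiac disease, were given composite nanoparticles of gliadin and rapamycin beforehand, and then had enhanced gluten stimulation. CeD mice were the same DTH model with enhanced gluten stimulation and no nanoparticles. Control mice were wild type (WT) with non-enhanced gluten stimulation, so that all groups received gluten. Gliadin is a protein fraction of gluten, and rapamycin inhibits the kinase mTOR. The labels used here give no strain, age, dose or time, and do not say how the model was made, how the duodenum was cut or whether each library is 1 animal, so the spread between libraries may be technical.

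The stomach is lined by surface mucous cells, which fill the gastric pits and secrete the mucin Muc5ac, the trefoil peptide Tff1 and the gastrokines Gkn1 and Gkn2. Mucous cells deeper in the gastric glands secrete another mucin, Muc6, with the trefoil peptide Tff2, and in mice Gkn3 marks gland cells of this kind. Brunner glands lie below the crypts of the first part of the duodenum, next to the stomach outlet, and also secrete Muc6 and Tff2. Pgc encodes pepsinogen C, a protease precursor of gastric glands and Brunner glands. Gast encodes gastrin, the hormone of antral G cells that drives acid secretion.

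Libraries held 15373260 to 16852104 gene-assigned reads. Levels are given in FPKM, fragments per kilobase of gene length scaled to a common library size, as deposited. CeD+GR 3 stood apart from the other libraries. Across the 14683 genes whose mean reached 0.5 FPKM, its log2 values correlated with those of the other libraries at 0.785 to 0.855, and the other libraries reached 0.930 to 0.974 with their closest partner (genes are not independent replicates). CeD+GR 3 held the highest value of the 9 libraries in 23.8% of these genes, and every other library held it in 7.05% to 17.2%. It held the lowest value in 20.4% of these genes. The labelled tissue was checked with 12 enterocyte markers of the duodenum, which were above 0 in all libraries, with a summed level of 8840 FPKM in CeD+GR 3 and 12838 to 35266 FPKM in the other 8. Of 4 ileal markers in the table, Fabp6 and Slc10a2 stayed at or below 0.384 FPKM in all libraries, while Slc51a and Slc51b ranged from 29.8 to 184 FPKM.

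The 9 genes carried 1920634 reads in CeD+GR 3, which is 11.88% of that library (exact binomial 95% interval 11.87 to 11.9%, for counting error only). They carried 64 and 0 reads in CeD+GR 1 and 2, 598, 16 and 5 reads in CeD 1 to 3, and 130, 11 and 12 reads in control 1 to 3. Their levels were therefore set almost wholly by 1 of the 3 CeD+GR libraries, and CeD+GR 1 lay within the range of CeD and control. CeD+GR 2 had no read of any of the 9 genes, and a count of 0 allows up to 3 reads. Fewer cells of a type and less RNA per cell cannot be told apart in bulk tissue.

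**Figure D1:**
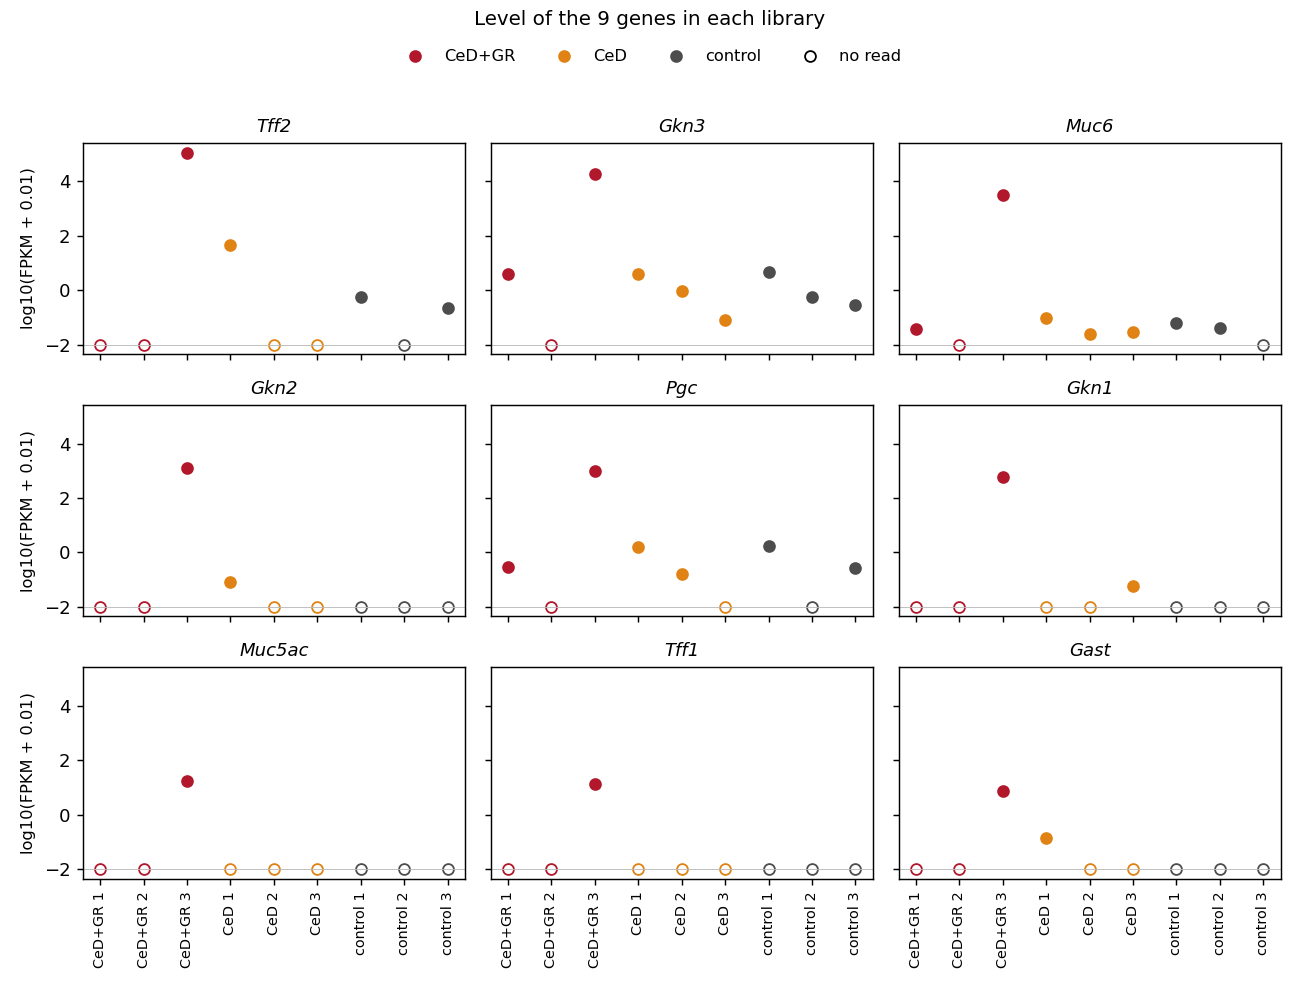
Level of each gene in each library as log10(FPKM + 0.01), a log axis, with CeD+GR left, then CeD, then control; open circles mark libraries with no read. CeD+GR 3 is the highest library in all 9 panels, and Muc5ac and Tff1 have no read in any of the other 8 libraries.

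The upstream sequences of the gastrokine trio and of Muc6 and Pgc are shown because these genes were high together in CeD+GR 3. They are the 250 bases before the RefSeq start (build GRCm38.p6), 5′ to 3′ on the gene's strand. Promoter windows were found for 6 of the 9 genes, with Gast as the sixth. Capitals mark every match, on either strand, of TATAAA (the TATA box), GATAA (a core of GATA factor sites), TGTTTNC (a forkhead core) and CACGTG (an E-box).
Gkn1 (chr6:87350916-87351165, minus strand): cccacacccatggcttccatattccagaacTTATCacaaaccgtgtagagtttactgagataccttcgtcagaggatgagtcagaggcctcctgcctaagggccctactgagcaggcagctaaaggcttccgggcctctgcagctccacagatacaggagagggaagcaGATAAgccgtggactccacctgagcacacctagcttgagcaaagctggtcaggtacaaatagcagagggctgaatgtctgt
Gkn2 (chr6:87373115-87373364, plus strand): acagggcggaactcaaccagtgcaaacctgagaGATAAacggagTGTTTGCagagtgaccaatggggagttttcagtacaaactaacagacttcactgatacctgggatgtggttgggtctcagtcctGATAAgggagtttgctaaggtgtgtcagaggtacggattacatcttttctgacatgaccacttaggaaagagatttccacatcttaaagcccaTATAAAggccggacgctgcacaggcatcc
Gkn3 (chr6:87388936-87389185, minus strand): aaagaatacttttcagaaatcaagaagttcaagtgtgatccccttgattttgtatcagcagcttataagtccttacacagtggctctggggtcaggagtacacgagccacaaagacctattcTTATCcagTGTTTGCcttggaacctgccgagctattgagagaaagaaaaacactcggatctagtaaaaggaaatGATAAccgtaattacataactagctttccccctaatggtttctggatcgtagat
Muc6 (chr7:141655394-141655643, minus strand): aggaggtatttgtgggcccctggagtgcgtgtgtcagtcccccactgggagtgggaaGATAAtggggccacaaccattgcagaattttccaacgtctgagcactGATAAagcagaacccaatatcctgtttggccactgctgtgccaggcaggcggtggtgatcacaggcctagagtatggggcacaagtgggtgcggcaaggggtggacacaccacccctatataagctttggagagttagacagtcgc
Pgc (chr17:47726592-47726841, plus strand): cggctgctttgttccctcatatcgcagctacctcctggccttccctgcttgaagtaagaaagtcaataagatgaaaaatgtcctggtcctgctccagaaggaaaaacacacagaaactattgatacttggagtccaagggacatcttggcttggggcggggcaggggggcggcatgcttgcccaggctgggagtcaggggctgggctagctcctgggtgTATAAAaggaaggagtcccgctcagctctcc
GATAA occurred in the 300-base windows (250 before to 50 after the start) of Gkn1, Gkn2, Gkn3 and Muc6, and in 25.4% of all 32851 windows. TATAAA occurred in those of Gkn2, Pgc and Gast, against 13.6% of all windows, at positions -29, -31 and -28 counted from the start. The match in Gast lies on the opposite strand, as TTTATA. Only exact matches were counted, so a near match such as TATATAA in Muc6 is not marked. TGTTTNC occurred in those of Gkn2 and Gkn3, against 20.5%, and CACGTG in none of the 6, against 7.15%. The RefSeq and GENCODE starts differ for Gkn1, Gkn2 and Muc6. The motifs can overlap, and a match is a stretch of letters and no evidence of binding.

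Among the gland products, Tff2 (ENSMUSG00000024028, mm10 chromosome 17, 31141049 to 31144282, minus strand, 4 exons) stood at 0, 0 and 116219 FPKM in CeD+GR 1 to 3, against 46.5, 0 and 0 FPKM in CeD 1 to 3 and 0.564, 0 and 0.203 FPKM in control 1 to 3. CeD+GR 3 was thus far above all others, CeD 1 was the only other library above 1 FPKM, and 5 libraries had no read. The level in CeD+GR 3 was 2500 times that in CeD 1, from 1109696 and 484 reads (counting interval of the ratio 2287 to 2739).

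Gkn3 (ENSMUSG00000030048, chromosome 6, 87383256 to 87388935, minus strand, 6 exons) stood at 4.07, 0 and 18377 FPKM in CeD+GR 1 to 3, against 3.865, 0.892 and 0.0709 FPKM in CeD 1 to 3 and 4.62, 0.559 and 0.277 FPKM in control 1 to 3. It was the most widely detected of the 9 genes, with reads in 7 of the 8 libraries other than CeD+GR 3. Its level in CeD+GR 3 was 3978 times that in control 1, the next library (257189 and 72 reads, counting interval 3158 to 5084).

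Muc6 (ENSMUSG00000048191, chromosome 7, 141633456 to 141655319, minus strand, 33 exons) stood at 0.0276, 0 and 3268 FPKM in CeD+GR 1 to 3, against 0.0839, 0.0148 and 0.0195 FPKM in CeD 1 to 3 and 0.0528, 0.0292 and 0 FPKM in control 1 to 3. All libraries but CeD+GR 3 had at most 14 reads of this long transcript. Muc6 had more reads than Gkn3 in CeD+GR 3, 500097 against 257189, but a lower level per length.

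Pgc (ENSMUSG00000023987, chromosome 17, 47726842 to 47734482, plus strand, 9 exons) stood at 0.279, 0 and 1007 FPKM in CeD+GR 1 to 3, against 1.58, 0.15 and 0 FPKM in CeD 1 to 3 and 1.70, 0 and 0.256 FPKM in control 1 to 3. Its ratio of CeD+GR 3 to the next library, 592 over control 1 (22847 and 43 reads), was the smallest among the gland products.

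The surface cell products followed the same library but reached lower levels. Gkn2 (ENSMUSG00000030049, chromosome 6, 87373357 to 87379497, plus strand, 6 exons) had 1225 FPKM in CeD+GR 3 from 15788 reads, and 1 read in all other libraries together, in CeD 1. Gkn1 (ENSMUSG00000030050, chromosome 6, 87345650 to 87350942, minus strand, 6 exons) had 578.5 FPKM in CeD+GR 3 from 11822 reads, and likewise 1 read elsewhere, in CeD 3. Muc5ac (ENSMUSG00000037974, chromosome 7, 141788972 to 141819231, plus strand, 49 exons) had 17.3 FPKM in CeD+GR 3 from 3036 reads and no read in the other 8 libraries, which makes it at least 892-fold higher there, with a floor of 3 reads per library. Tff1 (ENSMUSG00000024032, chromosome 17, 31161396 to 31165053, minus strand, 3 exons) had 13.6 FPKM from 106 reads and none elsewhere, at least 31.1-fold higher. Tff1 overlaps Gm15318 on the opposite strand, which stood at 18.6 FPKM in CeD+GR 3 and at 0.1635 FPKM or less elsewhere. Since the strand setting of the counting is not given in the sources used here, reads of these genes cannot be told apart.

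The hormone gene was at the low end. Gast (ENSMUSG00000017165, chromosome 11, 100334407 to 100336996, plus strand, 3 exons) had 7.05 FPKM in CeD+GR 3 from 53 reads, and 1 read in CeD 1 as the sole other count. The ratio of 57.8 has a counting interval of 9.935 to 2326, so the size of this difference is known only roughly.

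Ordered by level per length in CeD+GR 3, the genes ran Tff2, Gkn3, Muc6, Gkn2, Pgc, Gkn1, Muc5ac, Tff1 and Gast. Tff2 stood 6.32 times above Gkn3, and Gkn3 5.62 times above Muc6. The closest neighbours were Gkn2 and Pgc with a ratio of 1.22 and Muc5ac and Tff1 with 1.27. Gkn1 lay 33.5 times above Muc5ac, the widest step of the order. No counting intervals of neighbours overlapped, but this is 1 library, so the order has no replicate check. The 4 gland products together made up 98.7% of the summed FPKM of the 9 genes in CeD+GR 3, and the 4 surface products 1.3%.

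**Figure D2:**
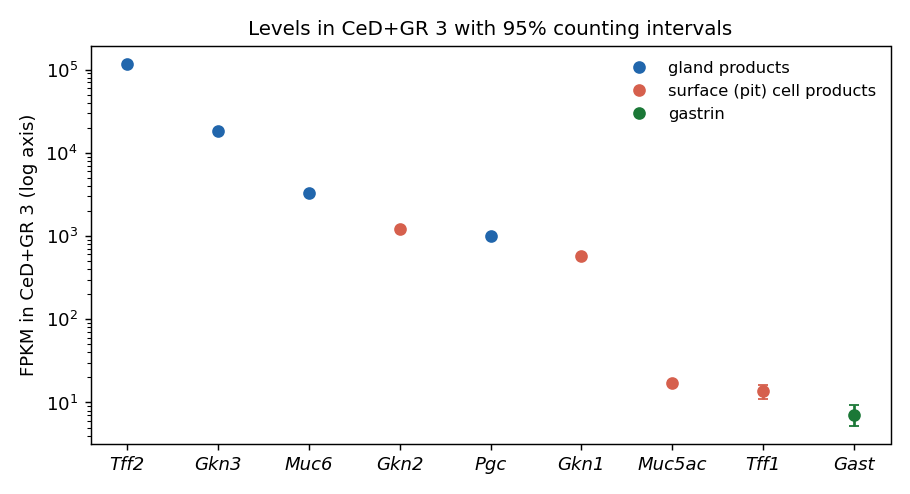
FPKM of each gene in CeD+GR 3 on a log axis, coloured by role, with 95% Poisson intervals that cover counting error only and are mostly smaller than the points. Levels span from 116219 FPKM for Tff2 to 7.05 FPKM for Gast, and Muc5ac and Tff1 lie below the gastrokines Gkn1 and Gkn2.

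Several of the genes lie in clusters, and levels within a cluster differed widely. The trefoil genes Tff3, Tff2 and Tff1 lie within 39.7 kb of chromosome 17. Tff3, the trefoil peptide of intestinal goblet cells, had 622.5 FPKM in CeD+GR 3 and 835 to 1582 FPKM in the other 8 libraries. In CeD+GR 3, Tff3 was thus the lowest of the 9 libraries while its neighbours Tff2 and Tff1 were the highest. Muc6, Muc2, Muc5ac and Muc5b lie within 239.6 kb of chromosome 7. Muc2, the main gel mucin of goblet cells, had 33 FPKM in CeD+GR 3 and 70.2 to 140 FPKM in the others. Muc5b, a gel mucin best known from the airways and salivary glands, had 8.26 FPKM in CeD+GR 3 and at most 0.0129 FPKM elsewhere. The 3 gastrokine genes lie within 43.3 kb of chromosome 6, and their levels in CeD+GR 3 ran Gkn3, Gkn2 and Gkn1 from high to low.

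Outside CeD+GR 3 the genes were low, and the libraries that carry replicate number 1 had most of the reads. Gkn3 stood at 4.07 FPKM in CeD+GR 1, 3.865 FPKM in CeD 1 and 4.62 FPKM in control 1, from 54 to 72 reads each, and at 0 to 0.892 FPKM in the other 5 libraries. The replicate 1 libraries lay above these 5 for 2 of the 9 genes, Gkn3 and Pgc, which is near the share of all genes tested, 17.7%. For Pgc the margin was small, 0.279 FPKM in CeD+GR 1 against 0.256 FPKM in control 3. Pgc had 6, 39 and 43 reads in CeD+GR 1, CeD 1 and control 1, and 0 to 6 reads in the 5 others. For markers of Paneth cells, the antimicrobial cells of the crypt base, the replicate 1 libraries lay above the 5 others in 8 of 8. Defa24, an alpha-defensin, stood at 611 to 1332 FPKM in the replicate 1 libraries and at 27.9 to 77.8 FPKM in the 5 others. In CeD+GR 3 itself Defa24 was at 30.8 FPKM, and the list summed to 81.4 FPKM there against 74.2 to 2152 FPKM in the other 8 libraries. The part of Paneth cell content in the low Gkn3 levels was not tested.

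Among the replicate 1 libraries CeD 1 stood out by Tff2, at 46.5 FPKM, against 0 in CeD+GR 1 and 0.564 FPKM in control 1. The genes did not keep the proportions of CeD+GR 3 there. Relative to CeD+GR 3, Tff2 in CeD 1 was at 400 ppm, Gkn3 at 210 ppm, Muc6 at 25.7 ppm and Pgc at 1565 ppm. CeD 1 also had the highest level of pancreatic enzyme genes, with 4198 FPKM summed over 13 genes. The sum was 26.7 to 69.2 FPKM in the CeD+GR libraries, 26.4 FPKM in the lowest CeD library and 61.3 to 86.6 FPKM in the control libraries. The part of pancreatic tissue in the Tff2 level of CeD 1 was not tested.

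**Figure D3:**
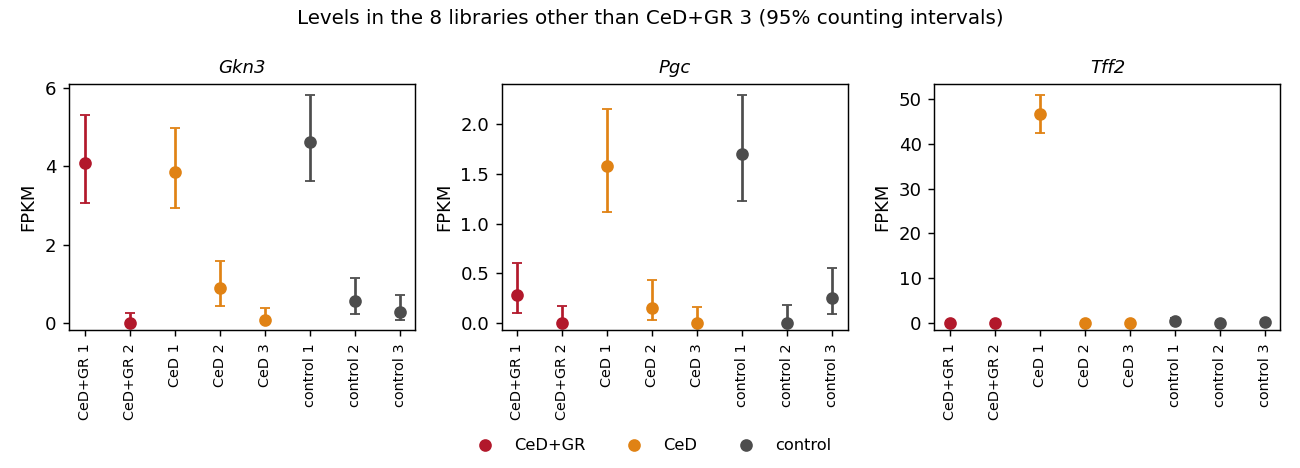
FPKM of Gkn3, Pgc and Tff2 in the 8 libraries other than CeD+GR 3, on linear axes that differ between panels, with 95% Poisson intervals for counting error. Gkn3 is at 3.865 to 4.62 FPKM in the replicate 1 library of each group and at 0.892 FPKM or less in the rest, and Tff2 is above 1 FPKM in CeD 1 alone.

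The comparison of CeD+GR with CeD sets mice given the nanoparticles against the same model without them. All 9 genes had a higher mean in CeD+GR, with log2 differences on the scale of log2(FPKM + 0.5) from 1.2 for Gast to 4.52 for Gkn3, but with standard errors of 0.94 and 3.23. Tff2 averaged 38740 ± 67099 FPKM in CeD+GR and 15.5 ± 26.8 FPKM in CeD (SD, n = 3 each), so the spread exceeded the mean in both groups. The median difference over the 9 genes was 3.35, against 0.008 over all 14683 genes, and it reflects CeD+GR 3. Of the 9 genes, 0 had groups without overlap, where 3.01% of all genes lay fully higher in CeD+GR and 3.04% fully lower. With limma at an adjusted p of 0.05, 0 of the 9 genes and 0% of all genes passed. Unadjusted, 167 genes were higher and 258 lower with p below 0.05, and limma-voom on recovered reads also passed 0 genes, with 69 higher and 299 lower at that level. Without CeD+GR 3, 0 of the 9 genes were higher in CeD+GR 1 and 2 than in CeD on this scale, 6 were lower and 3 were at 0.00. Muc5ac and Tff1 had no read in these libraries, and Gkn1, Gkn2 and Gast had 1 read each, in CeD. For these genes a difference was not detectable at this depth. The differences then ran from -2.18 for Tff2, which rests on CeD 1, to 0.00.

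The comparison of CeD+GR with control shares the CeD+GR libraries with the one above. Tff2 averaged 38740 ± 67099 FPKM in CeD+GR and 0.256 ± 0.286 FPKM in control (SD, n = 3 each), a log2 difference of 5.42 (SE 4.29). Over the 9 genes the differences ran from 1.31 for Gast to 5.42 for Tff2, with a median of 3.39 against -0.002 over all genes. Of the 9, 0 had groups without overlap, against 2.54% of all genes fully higher and 3.04% fully lower. Limma passed 0 of the 9 and 0% of all genes (unadjusted p below 0.05 in 193 genes upward and 207 downward, and 0 by limma-voom, with 110 and 203). Without CeD+GR 3 the differences ran from -0.59 for Pgc to 0.00.

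The comparison of CeD with control asks how the model differs from wild type, and here the 9 genes were low throughout. Gkn3 averaged 1.61 ± 1.996 FPKM in CeD and 1.82 ± 2.43 FPKM in control (SD, n = 3 each), a log2 difference of -0.09 (SE 3.23). Muc6 averaged 0.0394 ± 0.0386 FPKM in CeD and 0.0273 ± 0.02645 FPKM in control. Tff2 had the widest difference, 1.66 (SE 4.29), which rests on CeD 1, and the median over the 9 genes was 0.03 against 0.002 over all genes. Each of these differences was smaller than the spread between libraries. The standard errors come from a model over all 9 libraries and so carry the spread set by CeD+GR 3. Of the 9, 0 had groups without overlap, against 2.2% of all genes fully higher in CeD and 2.49% fully lower. Limma passed 0 of the 9 and 0% of all genes (unadjusted p below 0.05 in 40 genes upward and 63 downward, and 0 by limma-voom, with 25 and 37). For Gkn1, Gkn2, Muc5ac, Tff1 and Gast, with at most 1 read in all CeD and control libraries together, a difference was not detectable at this depth.

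All 9 genes were highest in CeD+GR 3, as the choice of the genes implies, where 23.8% of all genes were. All 9 passed the filter of a mean of at least 0.5 FPKM, but 7 of them only through CeD+GR 3: without it only Tff2 and Gkn3 would pass. A gap of at least 3 log2 units between the highest and the second library was found for 129 genes in CeD+GR 3 (0.879% of those tested), of which 9 are the genes described here and 120 others. The other libraries had 0 to 31 such genes.

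Other genes of the same tissues show which products came with them in CeD+GR 3. Of 12 further genes of the gastric surface epithelium, 7 of the 11 tested were highest there by at least 3 log2 units, as 0.879% of all genes were. Mucl3, a mucin-like protein, had 262 FPKM in CeD+GR 3 and at most 0.0973 FPKM in the others. Ctse, the protease cathepsin E, had 196.5 FPKM there and 0.115 to 2.95 FPKM elsewhere, and Psca, a small surface protein, 90.75 FPKM against at most 0.15 FPKM. Muc1, a membrane mucin listed with the intestinal mucins and also made by the gastric surface, had 49.8 FPKM there and at most 0.908 FPKM elsewhere. Of the 8 tested genes of that intestinal list, 3 were highest and 3 lowest in CeD+GR 3, as were 23.8% and 20.4% of all genes. Of 9 further genes of gastric neck, pyloric and Brunner glands, 4 of the 6 tested were highest there by that gap. These were Aqp5, A4gnt, Nkx6-3 and Muc5b, which passed the filter only through CeD+GR 3. The same holds for Mucl3, Psca, Anxa10, Cldn18 and Vsig1 among the surface genes, and for Muc1. For all of these the filter itself fixed CeD+GR 3 as the highest library, so the counts lend no support. Aqp5, a water channel of secretory glands, had 230 FPKM in CeD+GR 3 and no read elsewhere. A4gnt, the enzyme that caps Muc6 sugars with alpha-1,4-linked N-acetylglucosamine, had 168 FPKM there and at most 0.23 FPKM elsewhere. Cftr, the chloride channel, had 120 FPKM there and 9.3 to 19.25 FPKM elsewhere. Dmbt1, with the highest mean of these gland genes, had 205 FPKM there, within the range of the others, 3.54 to 579.5 FPKM. Among the surface genes, Capn9 and Sytl2 also lay within the range of the others. Egf, the growth factor known from Brunner glands of rodents, had 0.494 FPKM in CeD+GR 3 and at most 0.147 FPKM elsewhere. Of the genes of these lists, 0 passed limma in any comparison.

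Markers of other stomach cells were mixed in CeD+GR 3. Of 10 chief cell genes, Lipf and Chia1 had no read in any library, and the pepsinogen Pga5 stood at 0.227 FPKM in CeD+GR 3 and 0.129 FPKM or less in the others. The tenth gene, for intrinsic factor, is in the table under its older symbol Gif and had no read in CeD+GR 3. Rab3d, a secretory granule GTPase that is not limited to chief cells, had 61 FPKM there against 4.03 to 7.98 FPKM elsewhere. Bhlha15, a transcription factor of enzyme-secreting cells that is also present outside the stomach, had 9.855 FPKM there against 0.397 to 3.48 FPKM, and Ctsl, a lysosomal protease, 16.4 FPKM against 4.21 to 6.865 FPKM. The chief list summed to 91.2 FPKM in CeD+GR 3, mostly from Rab3d, and 15.8 to 25.6 FPKM in the others. Of its 5 tested genes, 4 were highest there, as were 23.8% of all genes. Among these, Slc39a7 led narrowly, at 2.12 FPKM against at most 2.03 FPKM. The remaining gene, Cym, was lowest there, at 1.435 FPKM against 3.22 to 10.03 FPKM. The acid pump subunits of parietal cells, Atp4a and Atp4b, stood at 0.211 and 0.122 FPKM in CeD+GR 3, from 13 and 3 reads, and at 0.149 FPKM or less in every other library. The parietal list of 10 genes summed to 26.5 FPKM there and 7.605 to 33.6 FPKM in the others. Of that list, the ion transport genes Slc26a9 and Kcne2 stood at 2.49 and 1.45 FPKM in CeD+GR 3 and at most 0.102 and 0.3355 FPKM elsewhere. The squamous list of the forestomach and oesophagus summed to 3.34 FPKM in CeD+GR 3 and 0.579 to 3.89 FPKM elsewhere, and 1 of its 12 genes passed the filter. Krt5, Krt6a, Trp63, Dsg3 and Krtdap had no read in CeD+GR 3. Krt13 and Krt4 had 0.739 and 0.115 FPKM there, from 22 and 4 reads, and none elsewhere, and Ivl, involucrin, had 1.27 FPKM from 40 reads against at most 0.264 FPKM.

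Gut hormones did not follow Gast. Of 11 other hormone and endocrine genes, 0 were highest in CeD+GR 3 and 7 were lowest there, where 20.4% of all genes were lowest. The list summed to 64.15 FPKM there against 156.7 to 353.3 FPKM. Sst, somatostatin, which restrains gastrin release, stood at 6.19 FPKM in CeD+GR 3 and 25.75 to 61.7 FPKM in the other 8 libraries. Gip, the incretin of the proximal intestine, stood at 23.9 FPKM against 47.1 to 193 FPKM, and Cck, cholecystokinin, at 4.69 FPKM against 11.7 to 20 FPKM. Ghrl, ghrelin, known mainly from the stomach, stood at 5.33 FPKM and within the range of the others, 2.03 to 6.40 FPKM.

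Transcription factors that mark position along the gut differed in CeD+GR 3 in both directions. Nkx6-3, a homeobox factor of the distal stomach, had 47.6 FPKM there, 0.6515 FPKM in CeD 1 and at most 0.0271 FPKM elsewhere. Barx1, Sox21 and Sox2, factors of stomach development, had 2.885, 1.996 and 1.01 FPKM there, under the filter, and at most 0.232 FPKM elsewhere. Pdx1, a factor of antrum, proximal duodenum and pancreas, had 46 FPKM in CeD+GR 3 but 1.59 and 0.118 FPKM in CeD+GR 1 and 2. It had 25.3, 12 and 6.64 FPKM in CeD 1 to 3 and 26 to 27.2 FPKM in control. Foxa1 had 28.3 FPKM in CeD+GR 3 against 0.912 to 2.38 FPKM. The intestinal factors Cdx2 and Cdx1 were lowest there, at 36 and 17.1 FPKM, against 57.2 to 140.6 and 40.15 to 65.4 FPKM. Gata4 stood at 49.6 FPKM, within the range of the others, 27.5 to 59.95 FPKM.

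Goblet and enterocyte genes were split in the same library. Agr2, a protein disulfide isomerase that helps fold mucins, had 4298 FPKM in CeD+GR 3 and 19.6 to 71.8 FPKM in the others, and Spdef, a transcription factor of mucous secretory cells, had 238 FPKM against 3.7 to 6.34 FPKM. The goblet products Zg16, Fcgbp, Tff3 and Muc2 were lowest there. Of 12 duodenal enterocyte genes, 7 were lowest in CeD+GR 3 (20.4% of all genes), with Lct, lactase, at 9.12 FPKM against 122.7 to 480.6 FPKM. The 4 that were highest there included Alpi, intestinal alkaline phosphatase, at 1643 FPKM against 404.5 to 1512 FPKM, and Cybrd1, the duodenal ferric reductase, at 21.95 FPKM against 0.166 to 1.48 FPKM. The part of neighbouring stomach or Brunner gland tissue in the levels of CeD+GR 3 was not tested.

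**Figure D4:**
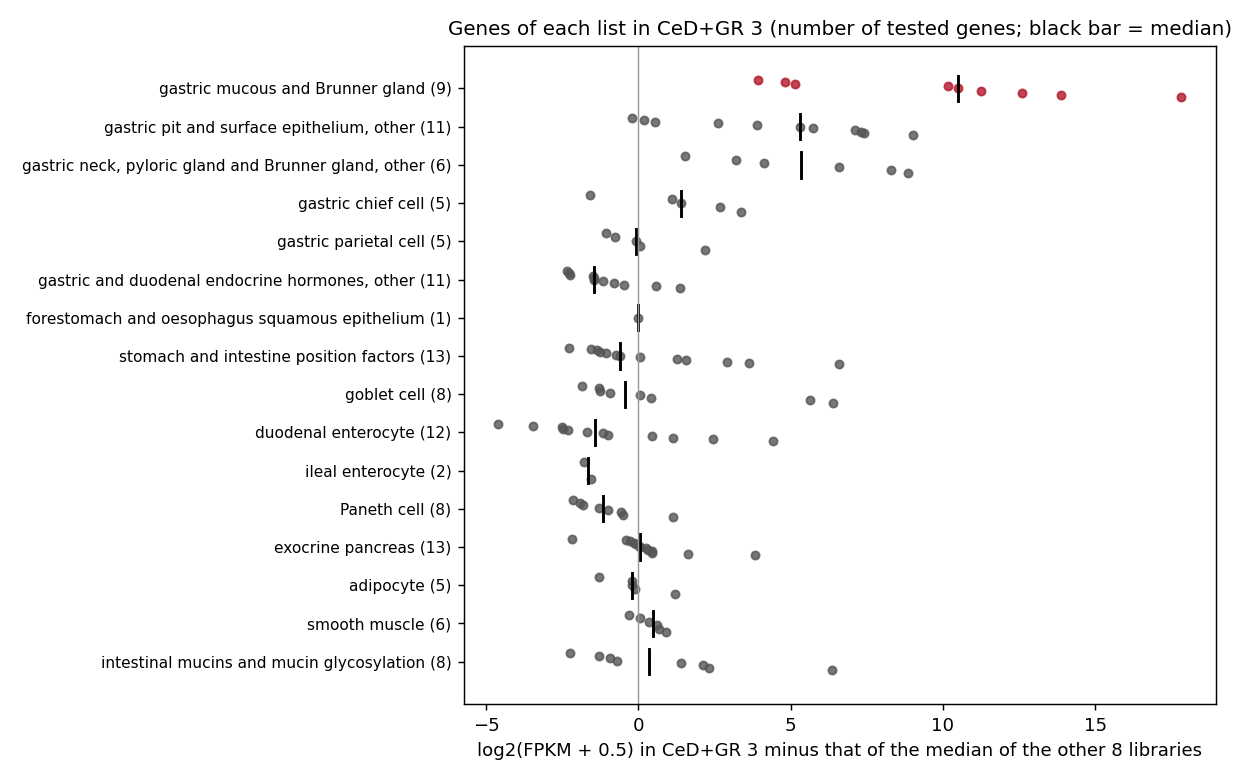
Each point is a tested gene of the list named at left, placed by log2(FPKM + 0.5) in CeD+GR 3 minus that of the median of the other 8 libraries; black bars are list medians. The 9 genes have a median of 10.48, the further surface and gland lists 5.30 and 5.36, and the parietal list -0.07, and genes that passed the filter only through CeD+GR 3 lie right by construction.

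Genes with the most similar profile were named by a rule: protein-coding, Pearson r of at least 0.95 over the 9 libraries with the mean profile of the 9 genes, then the widest gap between the highest and the second library. In all, 251 protein-coding genes reached that r, and the profile they were matched to is set almost wholly by CeD+GR 3. The first 12 were 2310057J18Rik, Aqp5, Mucl3, Wfdc18, A4gnt, Wfdc2, Chad, Psca, Anxa10, Nkx6-2, Vsig2 and A2ml1, with r of 0.977 to 0.995. All of these but Vsig2 passed the filter only through CeD+GR 3. The rule and the filter thus fixed CeD+GR 3 as their highest library, so the likeness lends no support. 2310057J18Rik, named in the table only as a RIKEN cDNA, had 2336 FPKM in CeD+GR 3 and no read elsewhere. Its level lay between Muc6 and Gkn2. Wfdc18 and Wfdc2, members of a family of secreted small proteins with a whey acidic protein domain, had 166 and 196.5 FPKM in CeD+GR 3 and at most 0.05688 and 0.59 FPKM elsewhere. Chad, a matrix protein best known from cartilage, had 271 FPKM against at most 1.09 FPKM. Nkx6-2, a homeobox factor related to Nkx6-3, had 44.3 FPKM against at most 0.159 FPKM.

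**Figure D5:**
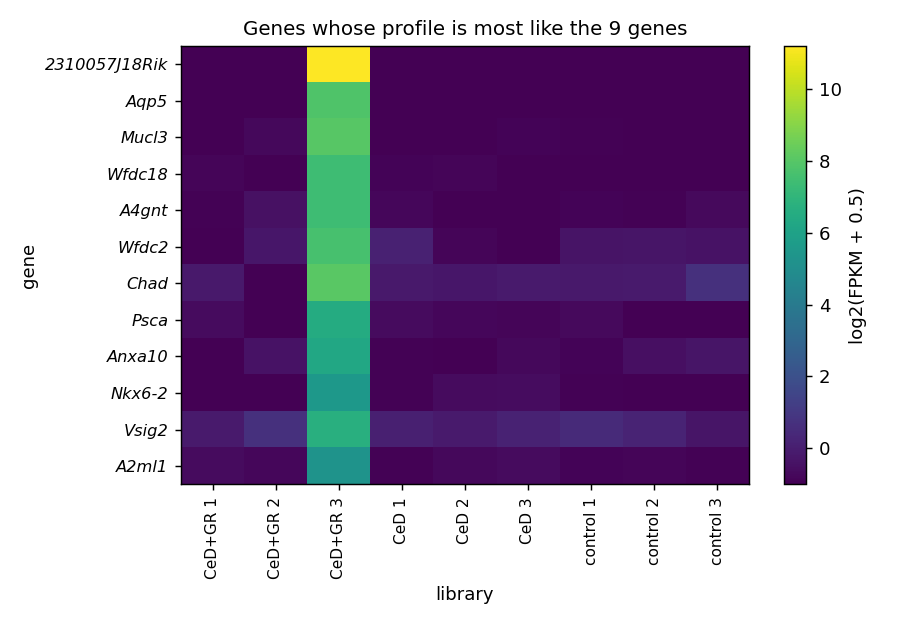
log2(FPKM + 0.5) of the 12 genes in each library, with CeD+GR left, then CeD, then control. CeD+GR 3 is the single high column, from 38.1 FPKM for A2ml1 to 2336 FPKM for 2310057J18Rik, which follows from how the genes were chosen.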

How the data were processed

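Duodenal RNA of 9 libraries (3 each of CeD+GR, CeD and control) was sequenced after ribosomal RNA removal with a directional kit, per the labels' protocols. FPKM values per gene were deposited by the authors. Per the submitters' processing notes, the build was mm10 and the tools included DESeq2 1.20.0, featureCounts 1.5.0-p3, HISAT2 2.0.5 and fastp. How FPKM was calculated, which annotation release was used and how strand was set is not given in the sources used here. Within a library, deposited FPKM values multiplied by gene length fell on whole multiples of a single step in 100% of cases (tolerance 0.1 reads), so reads were recovered, 15373260 to 16852104 per library. The library sizes implied by the FPKM values, 14410550 to 18206426, differ from these totals, so the authors' values carry a further scaling.

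Genes averaging 0.5 FPKM or more (14683 of 54532) were fitted with limma 3.58.1 (R 4.3.3) on log2(FPKM + 0.5), over all 9 libraries with a mean-variance trend and Benjamini-Hochberg adjustment at 0.05. The script was tested on simulated data. The 9 genes were described without a test, and an exact permutation test of 3 against 3 cannot go under 0.1. Intervals (95%) are exact Poisson or binomial and cover counting error only. Gene coordinates are as deposited, exon numbers and overlaps are from GENCODE M21 (mm10), and promoters are from RefSeq (GRCm38.p6). The deposited and GENCODE spans differ for Tff1 alone, with 31161395 to 31165277 in GENCODE. Further genes were named by likeness, as stated with the result. From each of 15 other lists the 3 with the highest mean and the 2 with the widest gap could be named, besides a short set always nameable. Not all of these were named: Kcnq1, Slc4a2, Ckm, Apoa1, Fabp2 and Fabp1 are examples left out. The named genes are thus a selected part of each list. Muc5b, Gm15318, Sox21, Egf, Fcgbp, Lct, Alpi, Slc26a9, Kcne2, Pga5, Lipf, Chia1, Bhlha15, Krt5, Krt6a, Trp63, Dsg3, Krt13, Krt4, Ivl, Fabp6, Cldn18, Vsig1, Capn9, Sytl2 and Slc39a7 were named outside that rule, after their values were seen. The members and lists were chosen with earlier results of these data known. Replicate numbers come from the sample titles. Same-numbered CeD and control libraries deviated together from their group means (correlations of 0.367 to 0.712 in 3 of 3 pairs). With CeD+GR this held for 2 of 3 pairs each. Differently numbered libraries could correlate as well, at 0.458 for CeD 3 with control 2. Whether the numbers pair is therefore not settled, and they were used as a block only as an alternative. Alternatives were a pseudocount of 0.1 or 1, testing genes without a filter or only those averaging 2 FPKM or more, median-of-ratios and quantile scaling, limma-voom on recovered reads, a replicate block, and leaving out each library.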

Additional observations from a re-analysis of the deposited data

How the results depend on the processing

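In all 3 comparisons 0 genes passed limma at pseudocounts of 0.1 and 1, without the filter, at a mean of at least 2 FPKM, under both rescalings and by limma-voom. The median-of-ratios rescaling left the gaps and the counts at unadjusted p below 0.05 unchanged, so it is no separate check. Leaving out 1 library at a time gave 0 to 1 genes for CeD+GR against control, the 1 being Gm22615 without control replicate 1 (log2 difference -4.31, adjusted p 0.014, limma; named after its value was seen), and 0 in the other comparisons. Of the 9 genes, those tested and higher numbered 9 in CeD+GR against CeD and 0 to 9 with 1 library left out. For CeD+GR against control they numbered 9 and 0 to 9 as well. Both values of 0 arise without CeD+GR replicate 3, where only 2 of the 9 genes pass the filter. For CeD against control they numbered 5 and 1 to 7, with 1 both without CeD+GR replicate 3 and without CeD replicate 1. Of those 5, Gkn1, Gkn2 and Gast each rest on 1 read, and Muc6 differed by 0.03 log2 units. The share of reads in the 9 genes in CeD+GR 3 was 11.88%, and 12.86% over reads of the nuclear genome. The gap to the second library stayed at 3 log2 units or more for 8 of the 9 genes under all scalings and pseudocounts run, and that of Gast was 2.84 with a pseudocount of 1. With the replicate number as a block, 0 genes passed in each comparison, so the block changed no call. Same-numbered CeD and control libraries deviated together from their group means, and so did CeD+GR 1 and 2 with theirs (0.254 to 0.414). CeD+GR 3 did not, at -0.12 with CeD 3 and -0.11 with control 3. Differently numbered libraries reached similar values, such as 0.503 for CeD+GR 2 with CeD 3, so the numbers were not shown to pair. Low counts limit Tff1 and Gast, with 106 and 53 reads in CeD+GR 3, and outside that library they limit all 9 genes except Tff2 in CeD 1.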
